A study of Oryctolagus cuniculus with 12 samples.

Results

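A set of 10 blood vessel genes was followed through wound healing of the rabbit conjunctiva. They were the growth factors VEGFA and PGF, the VEGF receptors KDR and FLT1, the angiopoietins ANGPT1 and ANGPT2 with their receptor TEK, and the endothelial genes PECAM1, CDH5, and VWF. The 10 genes were chosen by name, each from the row of the gene table that carries its symbol. All 10 were found among 20566 genes, and all 10 passed the filter on low counts that left 14835 genes for testing.

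The 12 RNA sequencing libraries came from conjunctiva of female Japanese white rabbits aged 12 to 14 weeks. Trabeculectomy (TL), a glaucoma operation that drains aqueous humor under the conjunctiva into a bleb, was done on the right eye. The groups TL3h, TL3d, and TL14d were bleb conjunctiva taken at 3 hours, at 3 days, or at 14 days, with 3 libraries each, and the control group was conjunctiva of left eyes, also with 3 libraries. Each operated eye also received mitomycin C, a DNA crosslinking drug used against scarring, a peripheral iridectomy, an injection of the glucocorticoid betamethasone, and antibiotic ointment, so none of these can be told apart from the operation. Which control eye belonged to which operated eye, and when control tissue was taken, are not given in the sources used here. The p-values therefore measure the spread between libraries treated as unpaired.

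VEGFA and PGF are secreted ligands. VEGFA signals for vessel growth and leak mainly through the receptor KDR, whereas FLT1 binds both ligands and can hold VEGFA away from KDR. ANGPT1 from cells around the vessel activates TEK (also called TIE2) and steadies the endothelium, and ANGPT2 released by endothelial cells mostly opposes it and loosens vessels at sites of sprouting. CDH5 (VE-cadherin) joins endothelial cells to each other, PECAM1 (CD31) sits at the same junctions but also on platelets and leukocytes, and VWF is the clotting protein that endothelial cells store.

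Total estimated counts ranged from 27111276 to 38591374 per library. Levels are given as CPM, which scales each count to a library of the same size, after scaling by trimmed mean of M-values (TMM), and 3 counts corresponded to between 0.0712 and 0.124 CPM. TL3h libraries had TMM factors of 0.768 to 0.783, and those of the other groups had 1.03 to 1.13. Scaling by library size alone moved the median change of all genes at TL3h against control from 0.02 to -0.47 on the log2 scale. TL14d replicate 1 stood apart from its group. Averaged over pairs, its Pearson correlation across genes was 0.959 when paired with controls but 0.883 within TL14d. Whether its label or the state of its tissue sets it apart cannot be told from these data, and every TL14d mean and test includes it unless stated otherwise. CDH5, a defining endothelial gene, was detected in every library, with 2.04 CPM as its lowest level. Of the 6 epithelial markers in the table, the summed level lay between 7610 and 13356 CPM in the control libraries, 6035 and 11009 CPM at TL3h, 9626 and 22717 CPM at TL3d, and 13421 and 17532 CPM at TL14d. TL3d replicates 1 and 2 and every TL14d library were above every control library. Of these markers KRT13 and PAX6 were called lower at TL3h and KRT5 higher at TL3d, and their part in the endothelial values was not tested.

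At TL3h, 5 of the 10 genes were higher than in control conjunctiva and none was lower (edgeR quasi-likelihood test, Benjamini-Hochberg adjusted q under 0.05 over all genes tested). These were PECAM1, CDH5, ANGPT2, FLT1, and VEGFA. Over all genes, 23.2% were called higher and 45.4% were called in either direction, so the background of the comparison was high. All 5 also did not overlap with control, as did 28.9% of all genes in this direction. In bulk tissue, a change in the number of cells of a type and a change in RNA per cell cannot be told apart. At TL3d, 2 of the 10 genes were higher, VEGFA and ANGPT2, where 10.6% of all genes were called higher and 17.6% in either direction. These and PECAM1 lay above all control libraries, as did 23.8% of all genes. At TL14d, none of the 10 passed, and 0% of all genes did. None of the 10 had an unadjusted p under 0.05 at TL14d, against 10.4% of all genes (1538), and DESeq2 called 367 of all genes and none of the 9 that it tested, as it gave PGF no adjusted p in any comparison. None of the 10 was free of overlap with control at this time, where 11.1% of all genes were. The median log2 change of the 10 genes was 1.32 at TL3h, 1.07 at TL3d, and -0.11 at TL14d, beside 0.02, -0.00, and 0.02 over all genes tested.

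**Figure D1:**
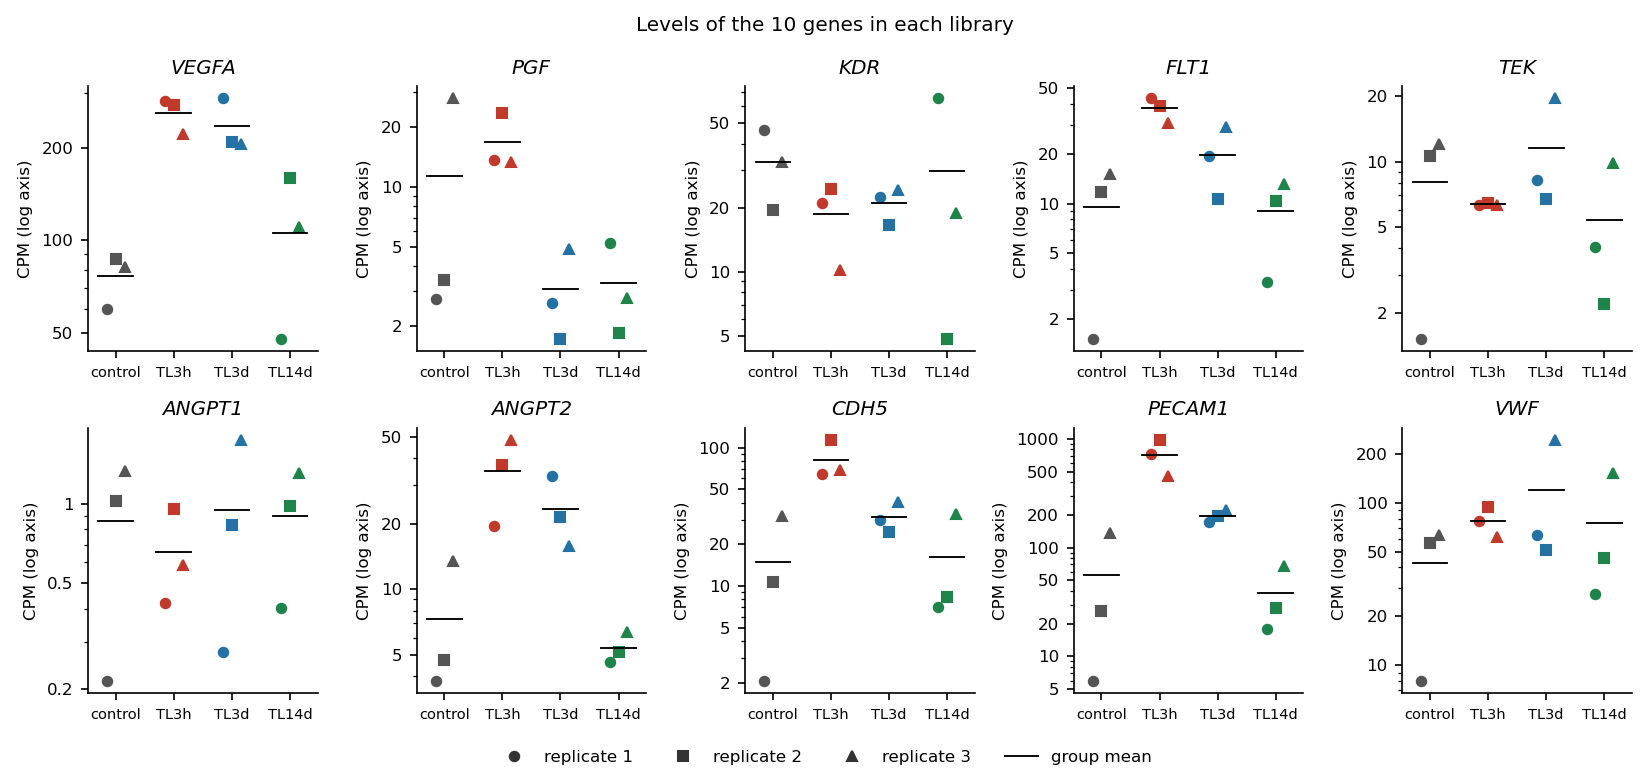
CPM of the 10 genes (vertical log axes, each with its own range) in the control, TL3h, TL3d, and TL14d groups, with 1 point per library, the replicate shown by its shape, and a line at the group mean. VEGFA, FLT1, ANGPT2, CDH5, and PECAM1 lay above every control library in all 3 TL3h libraries, while KDR was highest in TL14d replicate 1 at 65.5 CPM.

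Among the ligands, VEGFA (gene ID 100008899, OryCun2.0 chromosome 12, 33199538 to 33214875, plus strand) was the more abundant. It measured 59.7, 87.2, and 82.2 CPM in control replicates 1 to 3 and 284, 275, and 221 CPM at TL3h. The TL3d libraries held 289, 209, and 206 CPM, and the TL14d libraries 47.7, 159.8, and 110.5 CPM. Every TL3h and TL3d library exceeded every control library, while at TL14d replicate 1 fell below the control libraries and the other 2 libraries above them. The increase was 3.402-fold at TL3h (log2 1.77 ± 0.37 SE, edgeR q = 0.00336) and 3.07-fold at TL3d (log2 1.62 ± 0.37, edgeR q = 0.0201). At TL14d the difference from control was 0.47 on the log2 scale (edgeR q = 0.670). The TL3h call held under all 19 alternative settings. The TL3d call was lost without control replicate 1 (q = 0.0769), control replicate 2 (q = 0.0610), TL3d replicate 1 (q = 0.0702), or TL3d replicate 2 (q = 0.0588) in the edgeR fit.

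PGF (gene ID 100339515, chromosome 20, 30172073 to 30183891, plus strand), the ligand that binds FLT1 and not KDR, was less abundant. Its levels were 2.75, 3.43, and 27.8 CPM in the control libraries, 13.7, 23.4, and 13.3 CPM at TL3h, 2.62, 1.72, and 4.87 CPM at TL3d, and 5.24, 1.85, and 2.77 CPM at TL14d. Control replicate 3 was higher than every other library of the series, and the 3 TL3h libraries were higher than the remaining 8. The fitted difference at TL3h was 0.57 on the log2 scale (edgeR q = 0.606). Without control replicate 3 it was 2.39 (edgeR q = 0.00882), so that 1 library decided the call. At TL3d the difference from control was -1.88 (edgeR q = 0.137) and at TL14d -1.79 (edgeR q = 0.499), and without control replicate 3 these became -0.0249 (edgeR q = 0.979) and 0.0764 (edgeR q = 0.972).

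The course of PGF between 3 hours and 3 days was the only difference between neighboring time points that passed the test. PGF was 5.46-fold lower at TL3d than at TL3h (log2 -2.45 ± 0.86, edgeR q = 0.0465), with no overlap of the groups. Of all genes, 19% were called lower and 37.3% in either direction in this comparison. The call was lost without any 1 of the TL3h or TL3d libraries, with q between 0.0550 and 0.144, and without TL14d replicate 2 (q = 0.0523) or TL14d replicate 3 (q = 0.0619) in edgeR. It was also lost with library size only (q = 0.0735) and without the filter (q = 0.0533), and in DESeq2 it could not be tested. The ratio of VEGFA to PGF counts within a library needs no scaling between libraries. It was 21.6, 25.3, and 2.95 in control, 20.7, 11.7, and 16.6 at TL3h, 109.8, 120.0, and 42.1 at TL3d, and 9.08, 85.9, and 39.7 at TL14d. All TL3d ratios exceeded all control ratios (exact permutation p = 0.1, two-sided, the smallest value that 3 against 3 libraries allow).

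FLT1 and KDR are the receptors of these ligands. FLT1 (gene ID 100343352, unplaced sequence Un, 174240976 to 174438747, minus strand) measured 1.495, 11.8, and 15.1 CPM in control and 43.7, 38.9, and 30.8 CPM at TL3h. It then measured 19.3, 10.7, and 29.1 CPM at TL3d and 3.33, 10.4, and 13.2 CPM at TL14d. All TL3h libraries were above all other libraries of the series, and the TL3d libraries overlapped the control libraries. FLT1 was 3.996-fold higher at TL3h (log2 1.998 ± 0.74, edgeR q = 0.0499), which is at the threshold. The call was lost under 14 of 19 alternative settings, including the removal of any 1 of control replicates 1 and 2, the 3 TL3h, the 3 TL3d libraries, or TL14d replicates 2 and 3, and its highest edgeR q was 0.111 without TL3h replicate 1. Its log2 difference stayed between 1.49 and 2.53. At TL3d the difference was 1.06 (edgeR q = 0.316) and at TL14d -0.08 (edgeR q = 0.978).

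KDR (VEGFR2, gene ID 100008607, chromosome 15, 93608021 to 93652418, plus strand) is the receptor through which most VEGFA signaling runs. Control libraries held 46.3, 19.4, and 32.8 CPM and TL3h libraries 21.0, 24.6, and 10.2 CPM. At TL3d KDR stood at 22.5, 16.6, and 24.1 CPM, and at TL14d at 65.5, 4.81, and 18.8 CPM. The groups overlapped at each time point, and both the highest and the lowest level of the series were in the TL14d group. The log2 difference from control was -0.82 at TL3h (edgeR q = 0.396), -0.64 at TL3d (edgeR q = 0.556), and -0.15 at TL14d (edgeR q = 0.957). Without TL14d replicate 1, which held the highest level, the TL14d value was -1.48 (edgeR q = 0.196).

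The ratio of FLT1 to KDR counts within a library was 0.0326, 0.607, and 0.460 in control and 2.08, 1.58, and 3.01 at TL3h. It was 0.858, 0.643, and 1.21 at TL3d and 0.0511, 2.15, and 0.702 at TL14d. FLT1 counts thus exceeded KDR counts in 3 of 3 TL3h libraries and in 0 of 3 control libraries. The mean log2 ratio exceeded control by 3.36 at TL3h and by 2.06 at TL3d, with no overlap in either case (exact permutation p = 0.1, two-sided, the smallest possible). Without control replicate 1, whose ratio was the lowest of the series, the differences were 2.02 and 0.72. At TL14d the difference was 1.03 (exact permutation p = 0.5), and it was 2.56 without TL14d replicate 1 and -0.31 without control replicate 1. The table also lists a KDR-like gene (LOC100358984) with 7 to 278.5 counts per library and a second row described as VEGF receptor 1 (LOC103351855) with 1 to 67 counts, and how reads shared with these rows were divided is not given in the sources used here.

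**Figure D2:**
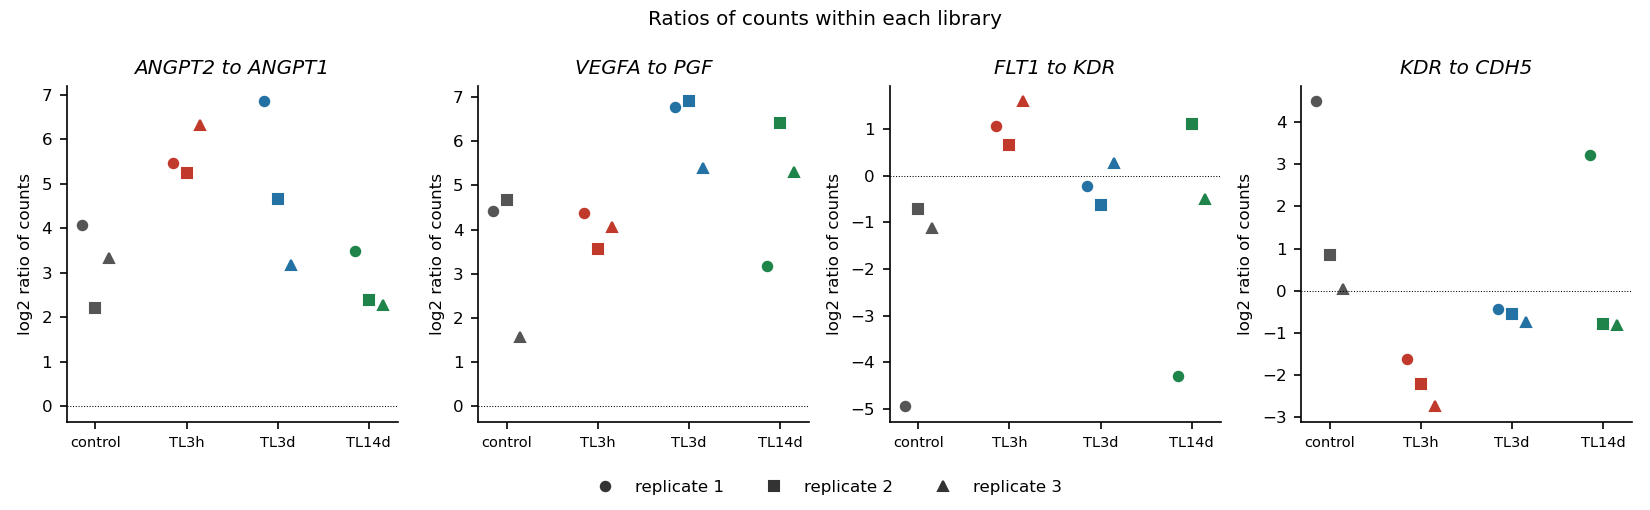
Log2 ratio of estimated counts of 2 genes in the same library (vertical axes) for 4 pairs of genes, with 1 point per library in the control, TL3h, TL3d, and TL14d groups and a dotted line at equal counts. FLT1 to KDR was above the line of equal counts in all 3 TL3h libraries and below it in all control libraries. Control replicate 1 and TL14d replicate 1 stood apart with KDR to CDH5 ratios of 22.5 and 9.30 before taking log2.

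Of the angiopoietins, only ANGPT2 passed the test in any comparison with control. ANGPT2 (gene ID 100353377, unplaced sequence Un, 99116930 to 99175740, plus strand) stood at 3.797, 4.75, and 13.5 CPM in control, 19.6, 37.0, and 48.2 CPM at TL3h, 33.2, 21.4, and 15.8 CPM at TL3d, and 4.67, 5.19, and 6.38 CPM at TL14d. All libraries of TL3h and TL3d lay above all control libraries, and the TL14d libraries were within the control range. ANGPT2 was 4.76-fold higher at TL3h (log2 2.25 ± 0.51, edgeR q = 0.00540), a call that held under all 19 alternatives. Without control replicate 3 the log2 difference was 2.98. It was 3.19-fold higher at TL3d (log2 1.68 ± 0.50, edgeR q = 0.0463), and this call was lost under 10 of 19 alternatives. Those were the fit without the filter (q = 0.0530), the fit of only the 6 libraries compared (q = 0.0861), and the edgeR fits without control replicates 1 or 2, TL3h replicates 2 or 3, TL3d replicates 1 or 2, or TL14d replicates 2 or 3, with q up to 0.1495 without TL3d replicate 1. Without control replicate 3 the log2 difference at TL3d was 2.44. At TL14d the difference was -0.44 (edgeR q = 0.784).

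ANGPT1 (gene ID 100342781, chromosome 3, 122698220 to 122945631, minus strand) was the least abundant of the 10 genes. It measured 0.214, 1.03, and 1.33 CPM in control, 0.423, 0.954, and 0.585 CPM at TL3h, 0.275, 0.831, and 1.74 CPM at TL3d, and 0.403, 0.978, and 1.30 CPM at TL14d. Replicate 1 was the lowest library of every group. The log2 differences from control were -0.39, 0.14, and 0.07 at TL3h, TL3d, and TL14d, with standard errors of 0.79, 0.77, and 0.77 and edgeR q of 0.722, 0.910, and 0.984. A 2-fold difference lay within 2 standard errors of each of these values.

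The ratio of ANGPT2 to ANGPT1 counts was 16.9, 4.59, and 10.05 in control and 44.3, 38.0, and 79.9 at TL3h. It was 115, 25.3, and 9.03 at TL3d and 11.2, 5.25, and 4.85 at TL14d. The TL3h ratios were all above the control ratios, with a mean log2 difference of 2.48 (exact permutation p = 0.1, two-sided, the smallest possible). The TL3d ratios overlapped control (difference 1.69, exact permutation p = 0.3), as did those of TL14d (difference -0.49, exact permutation p = 0.7). The TL3d difference was 0.71 without TL3d replicate 1 and 2.55 without TL3d replicate 3. TEK (gene ID 100356675, chromosome 1, 26309385 to 26437934, minus strand), the receptor of both angiopoietins, measured 1.52, 10.7, and 12.1 CPM in control, 6.34, 6.43, and 6.29 CPM at TL3h, 8.22, 6.71, and 19.7 CPM at TL3d, and 4.07, 2.20, and 9.86 CPM at TL14d. The TL3h libraries lay close together inside the control range. Its log2 differences from control were -0.35 (q = 0.733), 0.51 (q = 0.647), and -0.59 (q = 0.807) in edgeR at the 3 times. Without replicate 3 of the operated group they were -0.11 at TL3d (edgeR q = 0.930) and -1.37 at TL14d (edgeR q = 0.729).

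At TL3h the junction genes held the largest fitted increases of the 10. PECAM1 (gene ID 100357605, chromosome 19, 49210660 to 49263251, minus strand) measured 5.91, 26.0, and 135 CPM in control and 717, 972, and 459 CPM at TL3h. It measured 170.2, 196, and 221 CPM at TL3d and 18.0, 27.8, and 68.1 CPM at TL14d. The lowest TL3h library was above the highest of every other group, and all TL3d libraries were above all control libraries. PECAM1 was 12.8-fold higher at TL3h (log2 3.68 ± 0.97, edgeR q = 0.0109). The call held under all 19 alternatives, but the log2 difference ran from 3.14 without control replicate 1 to 5.44 without control replicate 3. At TL3d the difference of 1.81 did not pass (edgeR q = 0.173), and without control replicate 3 it was 3.61 (edgeR q = 0.0245). At TL14d it was -0.56 (edgeR q = 0.852).

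Leukocytes also carry PECAM1, and their markers were counted beside it. All 5 of 5 general leukocyte markers, PTPRC among them, were called higher at TL3h and at TL3d, and 0 at TL14d. Their summed level was 180.0 to 291 CPM in control, 896 to 1799 CPM at TL3h, 1130.4 to 1274 CPM at TL3d, and 162 to 697 CPM at TL14d. From TL3h to TL3d, PECAM1 differed by -1.87 on the log2 scale (edgeR q = 0.126) with no overlap, while the 5 markers had a median of -0.28 and none was called. The median was -2.47 for neutrophil markers, with 0 called, and 0.81 for monocyte and macrophage markers, with 1 called. Of the neutrophil markers, 5 of 5 tested were called higher at TL3h and 0 at TL3d, with sums of 2.92 to 69.6 CPM in control, 878 to 2342 CPM at TL3h, 95.3 to 437 CPM at TL3d, and 2.82 to 76.7 CPM at TL14d, and the row of a 6th, MMP8, held at most 2 counts in any library. Of 7 monocyte and macrophage markers, 4 were called higher at TL3h and 6 at TL3d. Their sums were 57.7 to 411 CPM in control, 452 to 744 CPM at TL3h, 1142 to 1626 CPM at TL3d, and 70.8 to 362 CPM at TL14d, so that they were highest at TL3d, whereas PECAM1 was highest at TL3h. Platelets carry PECAM1 as well. Of 4 platelet markers in the table, 2 were tested, and PPBP, a chemokine of platelet granules, was called higher at TL3h (edgeR q = 0.0133) and at TL3d (edgeR q = 0.0286). It held 0 to 2 counts in the control libraries and measured 16.2 to 34.1 CPM at TL3h, 21.3 to 55.1 CPM at TL3d, and 0 to 287 CPM at TL14d. ITGA2B, the platelet integrin, did not pass at TL3h (edgeR q = 0.259) or TL3d (edgeR q = 0.472), and GP9 held at most 1 count in any library. The summed level of the 4 markers was 5.58 to 9.05 CPM in control, 20.3 to 39.7 CPM at TL3h, 30.8 to 58.0 CPM at TL3d, and 5.51 to 293 CPM at TL14d. The part of these cells in the PECAM1 level was not tested.

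CDH5 (gene ID 100341002, chromosome 5, 21866678 to 21902323, plus strand), which is largely restricted to endothelium, stood at 2.04, 10.8, and 31.8 CPM in control and 64.3, 113, and 68.3 CPM at TL3h. At TL3d it stood at 30.1, 24.4, and 40.2 CPM and at TL14d at 7.03, 8.37, and 33.1 CPM. The TL3h libraries were above all others, and the remaining groups overlapped. CDH5 was 5.51-fold higher at TL3h (log2 2.46 ± 0.87, edgeR q = 0.0401). The call was lost under 10 of 19 alternatives, which were library size only, only the 6 libraries compared, and the removal of control replicate 1 or 2 or of any 1 TL3h or TL3d library. The highest edgeR q among them was 0.121, without control replicate 2, and the log2 difference ran from 1.94 without control replicate 1 to 3.63 without control replicate 3. The differences at TL3d and TL14d were 1.09 (edgeR q = 0.371) and 0.12 (edgeR q = 0.970), and without control replicate 3 they were 2.29 (edgeR q = 0.0906) and 1.33 (edgeR q = 0.564).

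VWF (gene ID 100009165, chromosome 8, 32066183 to 32225197, minus strand) did not pass at any time. It measured 7.95, 56.5, and 63.1 CPM in control, 76.8, 94.6, and 62.0 CPM at TL3h, 63.3, 50.9, and 244 CPM at TL3d, and 27.5, 45.6, and 152 CPM at TL14d. Every group overlapped the control group, and replicate 3 was far above the other libraries at TL3d and TL14d. The log2 differences were 0.87 (q = 0.440), 1.49 (q = 0.238), and 0.82 (q = 0.764) in edgeR, each with a standard error between 0.85 and 0.86. Without replicate 3 of the operated group, the difference was 0.43 at TL3d (edgeR q = 0.744) and -0.22 at TL14d (edgeR q = 0.959).

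**Figure D3:**
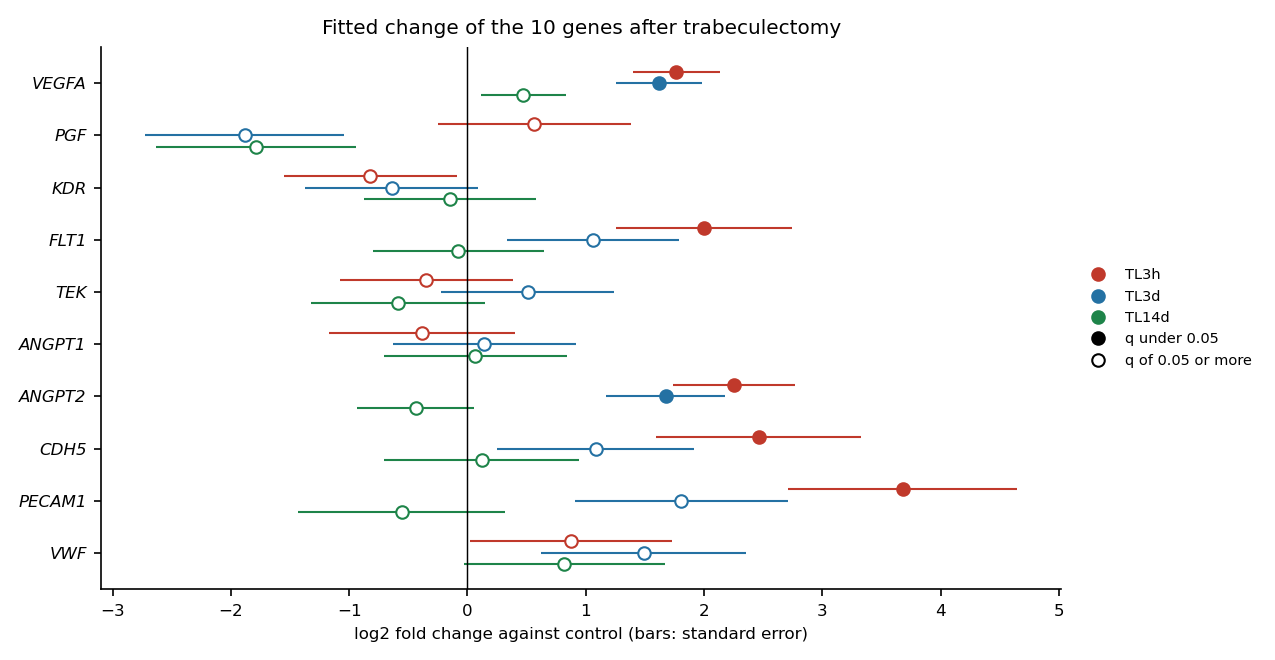
Log2 fold change against control from the edgeR fit (horizontal axis) for each of the 10 genes, in red for TL3h, blue for TL3d, and green for TL14d, with bars of 1 standard error and filled points where q was under 0.05. The 5 filled TL3h points run from 1.77 for VEGFA to 3.68 for PECAM1, the 2 filled TL3d points are VEGFA and ANGPT2, and no TL14d point is filled.

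Between TL3d and TL14d none of the 10 genes passed in edgeR, where 2.24% of all genes did. VEGFA, ANGPT2, and PECAM1 had an unadjusted p under 0.05 and did not overlap between the groups, being lower at TL14d in each library. Of all genes, 22.6% had such a p and 14% did not overlap in this direction. The log2 differences were -1.15 for VEGFA (edgeR q = 0.110), -2.11 for ANGPT2 (edgeR q = 0.0630), and -2.37 for PECAM1 (edgeR q = 0.168). DESeq2 called all 3 of these, with q of 0.0303, 0.00140, and 0.0403. Without TL14d replicate 1 the same differences were -0.80, -2.02, and -2.03, and none passed in edgeR. Between TL3h and TL3d, FLT1, PECAM1, and CDH5 also did not overlap and were lower at TL3d, and TEK did not overlap and was higher. Their edgeR q were 0.332, 0.126, 0.21997, and 0.385, and non-overlap was found in 28.5% of all genes in the lower and 26.2% in the higher direction.

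KDR was set against CDH5 within each library. The ratio of KDR to CDH5 counts was 22.5, 1.80, and 1.03 in control, 0.327, 0.217, and 0.1498 at TL3h, 0.747, 0.680, and 0.601 at TL3d, and 9.30, 0.575, and 0.568 at TL14d. KDR counts were above CDH5 counts in all control libraries and below them in every TL3h and TL3d library. Counts are not scaled by transcript length. Per length, KDR (6.26 FPKM) was below CDH5 (7.73 FPKM) in control replicate 3. The mean log2 ratio differed from control by -3.98 at TL3h and -2.37 at TL3d (exact permutation p = 0.1 for each, two-sided, the smallest possible), and without control replicate 1 by -2.63 and -1.02. Control replicate 1 and TL14d replicate 1, which had the 2 highest KDR levels, had the lowest levels of CDH5, PECAM1, FLT1, and VWF within their own groups. Pearson correlations over the 12 libraries on log2 CPM were -0.25 for KDR with CDH5 and -0.54 with VEGFA, against 0.97 for CDH5 with PECAM1 and 0.94 for CDH5 with FLT1. These libraries share their groups and their scaling, so the correlations are descriptions only.

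Fibroblast markers varied widely between libraries. Their 6 genes were all in the table and none was called at any time against control. Their summed level was 12161, 35466, and 76287 CPM in control replicates 1, 2, and 3, which is also the order of CDH5, PECAM1, ANGPT2, FLT1, and VWF in these libraries. At TL3h the sums were 105042 to 125553 CPM, above every control library. At TL3d they were 1328, 11713, and 64685 CPM, while CDH5 was between 24.4 and 40.2 CPM in the same libraries. At TL14d they ranged from 11014 to 57032 CPM. Skeletal muscle markers summed to 221 CPM in control replicate 2 and 284 CPM in TL3d replicate 3, the library with the highest VWF, and to at most 8.73 CPM elsewhere. The part of tissue makeup in the endothelial values was not tested.

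**Figure D4:**
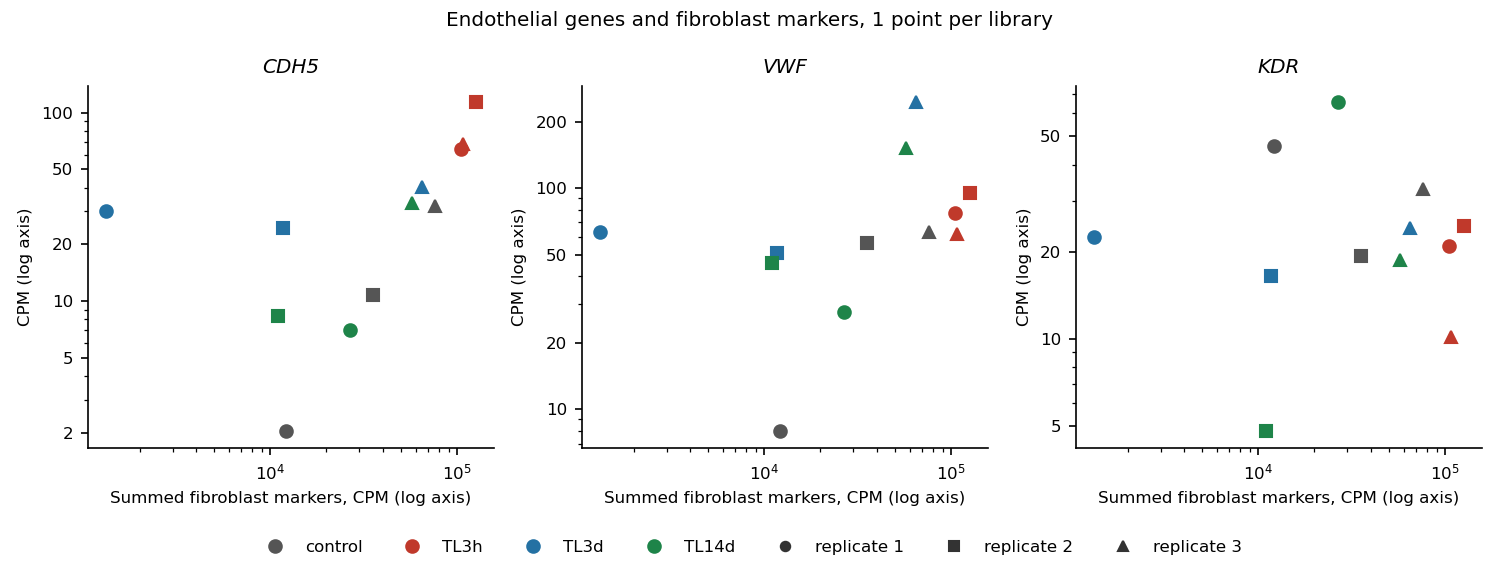
CPM of CDH5, VWF, and KDR (vertical log axes) against the summed CPM of 6 fibroblast markers (horizontal log axes), with 1 point per library, color for the group, and shape for the replicate. The 3 TL3h libraries sit at fibroblast sums of 105042 to 125553 CPM with the highest CDH5, and KDR is highest in TL14d replicate 1 and control replicate 1.

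Markers of other cell types near vessels were counted as well. Of 6 pericyte markers, NOTCH3 was called lower at TL3h (log2 -2.17, edgeR q = 7.49e-04) and none at TL3d, and their sum was 404 to 509 CPM in control and 284 to 435 CPM at TL3h. Of 6 lymphatic endothelial markers, only PDPN was called, higher at TL3h (log2 3.04, edgeR q = 0.00215) and at TL3d (log2 2.23, edgeR q = 0.0279). Their sum was 91.1 to 600.4 CPM in control and 1033 to 1341.0 CPM at TL3h. PDPN is also made by fibroblasts.

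Levels of different genes were compared per transcript length as FPKM. In control the order of mean levels was VEGFA (15.9 to 23.4 FPKM), PECAM1, KDR, PGF, VWF, CDH5, ANGPT2, TEK, FLT1, and ANGPT1 (0.318 ± 0.209 FPKM, SD, n = 3). Each neighboring pair overlapped in its 3 libraries. At TL3h the order was PECAM1 (144 ± 48.6 FPKM), VEGFA (49.0 ± 5.70 FPKM), CDH5 (14.9 ± 4.62 FPKM), ANGPT2, PGF, VWF, FLT1 (3.67 ± 0.593 FPKM), KDR (2.65 ± 1.02 FPKM), TEK (0.939 ± 0.0118 FPKM), and ANGPT1 (0.176 ± 0.0700 FPKM). In this group PECAM1 did not overlap with VEGFA, VEGFA with CDH5, CDH5 with ANGPT2, VWF with FLT1, KDR with TEK, or TEK with ANGPT1, and the other neighbors overlapped. At TL3d VEGFA (62.1 ± 13.3 FPKM) and PECAM1 (55.3 ± 6.09 FPKM) led and overlapped each other, and both stood above every library of the other 8 genes. At TL14d VEGFA (28.1 ± 15.1 FPKM) led and overlapped PECAM1 (10.7 ± 7.38 FPKM), and ANGPT1 was last with 0.339 ± 0.170 FPKM.

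The 10 genes had 15 transcripts in the transcript table, all of them tested. There were 2 transcripts each for PECAM1, ANGPT2, PGF, KDR, and ANGPT1, and the other 5 genes had 1. At TL3h, 5 of the 15 were called higher in edgeR, where 14.1% of all transcripts were called higher and 28.3% in either direction. They were the VEGFA transcript (log2 1.72, q = 0.00647), both of PECAM1 (3.58 for XM_008271715.2, q = 0.0187, and 4.60 for XM_008271716.2, q = 0.0332), and both of ANGPT2 (2.11, q = 0.0195, and 2.26, q = 0.00951). The calls of XM_008271716.2 and XM_008271715.2 were lost under 6 and 2 of 19 alternatives, and that of the ANGPT2 transcript with the smaller difference (XM_008274180.2) under 4. Without control replicate 3 the log2 differences were 8.75, 5.31, and 2.80 for these transcripts and 3.04 for the other ANGPT2 transcript. The single transcripts of FLT1 and CDH5 did not pass (edgeR q = 0.0791 and 0.0635). At TL3d only the VEGFA transcript was called (log2 1.60, edgeR q = 0.0393), where 3.24% of all transcripts were called higher and 5.13% in either direction, and this call was lost under 11 of 19 alternatives, with q up to 0.142 without control replicate 1. The PECAM1 transcript XM_008271716.2 made up 0 to 4.90% of the gene's transcript counts in control, 7.57 to 9.07% at TL3h, 3.18 to 4.77% at TL3d, and 2.35 to 3.48% at TL14d. The minor KDR transcript XM_017347243.1 held 5.04 to 10.6% over all libraries.

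Other genes of these pathways were counted from lists. Over all genes, 23.2% were called higher and 22.2% lower at TL3h, and 10.6% and 7% at TL3d, and a list whose share is near these does not stand apart. Of 7 further genes of the VEGF and angiopoietin axis, only NRP2, a coreceptor for VEGF family ligands, was called. It averaged 15.3 ± 10.95 CPM in control, 102 ± 21.0 CPM at TL3h (log2 2.73, edgeR q = 0.0354), and 137 ± 51.7 CPM at TL3d (log2 3.16, edgeR q = 0.0459). Without control replicate 1 its q was 0.110 at TL3h and 0.133 at TL3d. The other receptors of the axis did not pass at TL3h, including FLT4 (log2 0.13, q = 0.893), NRP1 (1.31, q = 0.192), and the TEK relative TIE1 (0.36, q = 0.666) in edgeR.

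Of 18 further endothelial genes, 4 were called higher and 2 lower at TL3h, against 23.2% and 22.2% of all genes, so the list held no excess of calls. The higher ones were the transcription factors SOX7 (log2 1.30, q = 0.00388), SOX17 (3.403, q = 0.00491), and FLI1 (2.63, q = 0.00736) and the nitric oxide synthase NOS3 (3.20, q = 0.00702), all in edgeR. SOX17 went from 0.407 ± 0.279 CPM in control to 4.33 ± 0.939 CPM, and NOS3 from 1.16 ± 0.924 to 10.7 ± 2.70 CPM. FLI1 is also made in blood cells. The 2 lower genes were outside the naming rule and are given here after their values were seen. They were SOX18, the relative of SOX7 and SOX17, with 7, 30, and 14 counts in control and 2, 2, and 0 counts at TL3h (edgeR q = 0.0349), and RASIP1 (log2 -1.73, edgeR q = 0.0242), a gene of vessel lumen formation. These calls were lost under 5 of 18 and 4 of 19 alternatives, and both were lost without control replicate 2, TL3h replicate 2, or TL3h replicate 3. At TL3d only ENG, a coreceptor of the TGF-β family, was called (23.8 ± 16.1 CPM in control, 85.6 ± 21.2 CPM at TL3d, log2 1.84, edgeR q = 0.0421), and without control replicate 2 its q was 0.117.

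Of 13 genes of sprouting and Notch signaling, 3 were called higher and 2 lower at TL3h, which is again near or below the 23.2% and 22.2% over all genes. The count of higher genes was 1 without control replicate 2 and without TL3h replicate 2. ESM1, a secreted product of endothelial tip cells, averaged 3.32 ± 2.26 CPM in control and 52.3 ± 50.4 CPM at TL3h (log2 3.98, edgeR q = 0.00394), and without TL3h replicate 2 the log2 difference was 2.81. The Notch ligand DLL4 (log2 2.50, edgeR q = 0.0242) and the chemokine receptor CXCR4 (log2 2.42, edgeR q = 0.0252), which leukocytes also carry, were higher. The Notch target HEY1 was lower, from 51.5 ± 23.8 to 21.0 ± 4.36 CPM (log2 -1.30, edgeR q = 0.00879), and so was HEY2 (log2 -1.15, edgeR q = 0.0492), which the naming rule did not take and whose call was lost under 14 of 19 alternatives. The target HES1 did not pass (log2 -0.42, edgeR q = 0.414). The ligand DLL4 and the target HEY1 thus went in opposite directions at TL3h. At TL3d ESM1 (log2 3.18, q = 0.0297) and CXCR4 (2.70, q = 0.0396) were higher and HEY1 lower (-1.78, q = 0.0131) in edgeR. Without control replicate 2 the q of DLL4 at TL3h was 0.0856, and those of ESM1 and CXCR4 at TL3d were 0.0851 and 0.120. The CXCR4 call at TL3h was lost under 4 of 19 alternatives, with edgeR q up to 0.0837 without control replicate 1.

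Of 6 angiogenesis inhibitors, THBS1, the secreted protein thrombospondin 1, was called higher at TL3h. It rose from 3.75 to 58.0 CPM in the control libraries to 2986 to 4181 CPM (log2 7.31, edgeR q = 0.00941), and without control replicate 3 the log2 difference was 9.25. At TL3d the only one called was its receptor CD36 (6.22 ± 2.43 CPM in control, 29.9 ± 7.89 CPM, log2 2.26, edgeR q = 0.0157), which macrophages also express. The CD36 call was lost under 3 of 19 alternatives, with edgeR q up to 0.0561 without control replicate 2. Of 15 hypoxia-inducible factor (HIF) subunits and targets, 5 were higher and 1 lower at TL3h, and 4 higher and 1 lower at TL3d. Over all genes 45.4% were called in either direction at TL3h and 17.6% at TL3d. The 4 higher at TL3d became 0 without control replicate 1, control replicate 2, TL3d replicate 1, or TL3d replicate 2, and the 1 lower at TL3h became 5 with library size only. HIF1A averaged 128 ± 35.8 CPM in control, 684 ± 181 CPM at TL3h (log2 2.41, edgeR q = 0.00105), and 507 ± 47.9 CPM at TL3d (log2 1.98, edgeR q = 0.0157). ADM, the vasodilator peptide adrenomedullin, went from 17.3 ± 19.5 to 456 ± 35.4 CPM at TL3h (log2 4.72, edgeR q = 6.43e-04) and stood at 27.2 ± 4.97 CPM at TL3d. The glycolytic enzyme PGK1 was higher at both times (log2 1.72, q = 0.00195, and 1.67, q = 0.0143), NDRG1 at TL3h (1.60, q = 0.00158), and LDHA at TL3d (1.63, q = 0.0296) in edgeR. LDHA was also called higher at TL3h (log2 1.23, edgeR q = 0.0347), a call lost under 7 of 19 alternatives. The TL3d calls of HIF1A, PGK1, and LDHA were each lost under 4 of 19 alternatives, with q up to 0.0615, 0.0557, and 0.103. EPAS1, another HIF subunit, was lower at TL3d (log2 -1.54, edgeR q = 0.0448), and this call was lost under 11 of 19 alternatives.

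Control replicate 3 also moved other called genes of the lists. Without it the log2 difference at TL3h was 3.397 for NRP2, 3.36 for FLI1, 3.92 for NOS3, 3.74 for DLL4, 3.04 for CXCR4, and 6.19 for ADM. At TL3d it was 3.86 for NRP2, 2.45 for ENG, and 3.36 for CXCR4. Each of these was larger than the value with all libraries.

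At TL14d no gene of these 5 lists was called. TL14d replicate 1 decided this. Without it, 4.74% of all genes were called (716 of 15114), and 6 list genes were higher and 1 was lower than control, among them NRP2 (log2 4.30, edgeR q = 0.0111), THBS1 (log2 6.54, edgeR q = 0.0216), and HIF1A (log2 1.12, edgeR q = 0.0472), whereas none of the 10 genes passed. The other 4 were UNC5B, PDGFB, and PGK1, which were higher, and PDK1, which was lower.

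**Figure D5:**
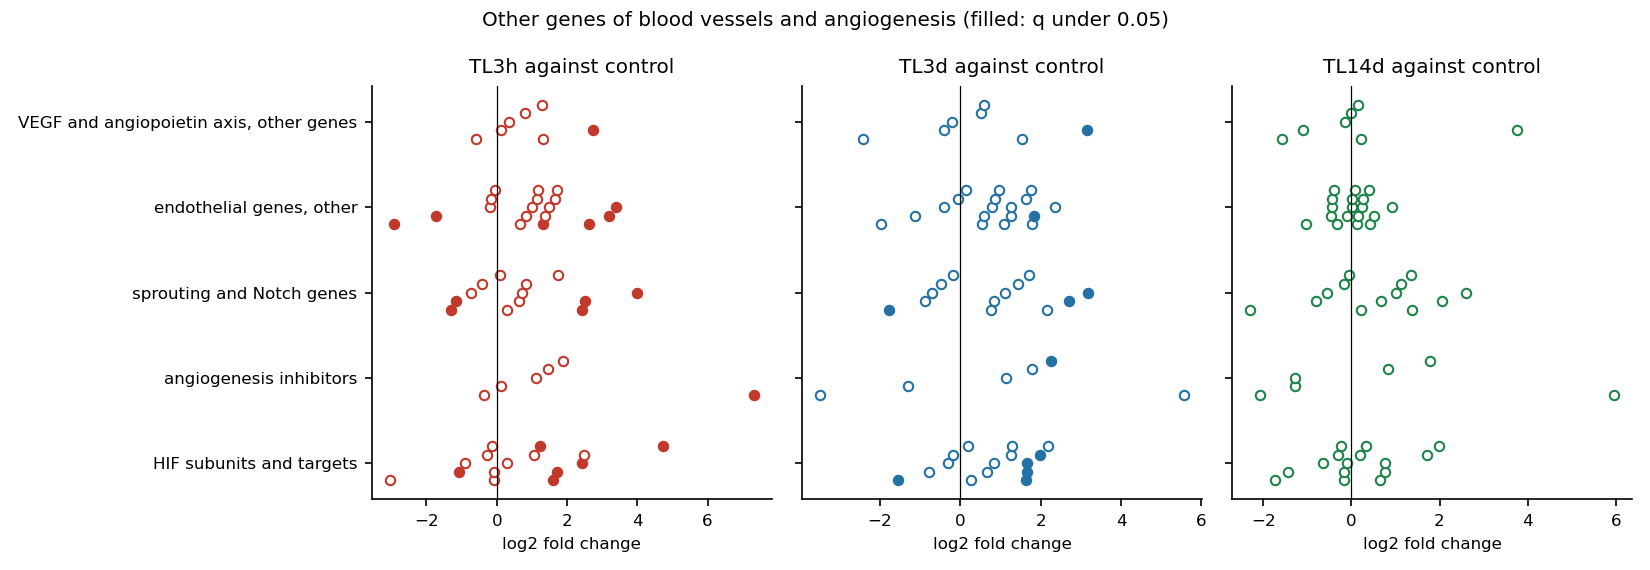
Log2 fold change against control (horizontal axes) of the genes in 5 lists (rows) at TL3h, TL3d, and TL14d, with 1 point per gene, spread vertically within a row so that points do not hide each other, and filled where edgeR q was under 0.05. The point farthest right at TL3h is THBS1 at 7.31, filled points lie on both sides of 0 in 3 lists at TL3h, and none is filled at TL14d.

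The genes most like each of the 10 across the 12 libraries were sought among the 13253 genes whose mean reached 1 CPM, by Pearson correlation of log2 CPM. For CDH5 they were DLL4 (0.975), NR5A2 (0.973), and PECAM1 (0.968), and for FLT1 CDH5 (0.937), EDNRB (0.935), and NR5A2 (0.928). For PECAM1 they were a gene described as ribosomal protein S6 kinase alpha-2 (LOC100344451, 0.982), the inflammasome gene NLRP3 (0.979), and FLI1 (0.977). VWF was most like PLVAP (0.946), a protein of endothelial diaphragms, then PLA2G2D (0.943) and CDK2AP1 (0.917), and TEK was most like AFAP1L1 (0.922), CCM2L (0.919), and HOXD4 (0.910). VEGFA was closest to COMMD8 (0.989), EVI2B (0.984), and KPNA2 (0.979), and ANGPT2 to EXOC5 (0.962) and ARPC1A (0.961). PGF was closest to LARP6 and KLF9 (both 0.983), and ANGPT1 to FGF13 (0.934). KDR had the weakest match of the 10, a gene described as 60S ribosomal protein L7a-like (LOC100354898, 0.908), followed by AK4 (0.856) and HTRA2 (0.849). A leading correlation out of so many genes is a description and carries no test.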

How the data were processed

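Per the labels and methods, stranded mRNA libraries were sequenced as 150 bp pairs and mapped to OryCun2.0 with STAR 2.6.0c. GeneData Profiler Genome made the tables. The authors deposited estimated counts, not scaled by depth, of which 23.4% per gene were fractions, and FPKM values, which the authors divided by length and depth. How reads with several placements were divided is not given in the sources used here.

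Counts were rounded. The filter filterByExpr (minimum count 10, total 15) kept 14835 of 20566 genes and 26082 of 38710 transcripts. All 12 libraries entered 1 quasi-likelihood fit in edgeR 4.0.16 (R 4.3.3) with TMM scaling and no covariate, and p-values were Benjamini-Hochberg adjusted over all genes (q) with a threshold of 0.05. CPM used TMM-scaled library sizes. Ratios had 0.5 added to each count and were compared by two-sided exact permutation tests. FPKM served only to order genes within a group. The floor of 3 counts is what a count of 0 allows at 95% confidence and covers counting error only.

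The fits were tested on simulated data. Total counts were 27111276 to 38591374. No 2 libraries of a group were copies, since the squared difference of their counts over the counting variance had a median of at least 5.15. The 19 alternatives were DESeq2 1.42.0 size factors, library size only, no filter, DESeq2, limma-trend (limma 3.58.1, prior count 1), only the 6 libraries compared, a replicate block, and leaving out each library.

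The 10 genes, the lists, and the tests were chosen with earlier results of these data known. Of 123 list genes, 110 were in the table, 7 of them matched by gene ID, and the others (VEGFB and NOTCH1 among them) were not analysed here. Named genes were all 10, up to 4 called genes of smallest q per list and comparison with control, the 3 most correlated genes per gene (not all are reported here), and transcripts with a mean of at least 1 CPM. Positions are those of the authors' table. The sequences of these genes were not used here.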

Additional observations from a re-analysis of the deposited data

Results flagged for a closer look

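PGF was the only 1 of the 10 genes for which the difference between neighboring time points passed the test. It was lower at TL3d than at TL3h by a log2 difference of -2.45 (edgeR q = 0.0465), and in 3 of 3 TL3d libraries below all TL3h libraries. Of all genes, 37.3% were called in either direction in this comparison, 19% were called lower, and 28.5% were lower without overlap. The call was lost under 10 of the 18 alternatives that gave PGF a value, with q up to 0.144. Since both times were set against the same control libraries, this is also the difference between the changes from control at the 2 times.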

How the results depend on the processing

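Of 945 values of the 10 genes under the alternatives, 847 kept their direction and their side of the threshold, 48 lost the call, 11 gained one, and 39 changed sign. Of 455 values of the named list genes, 73 lost the call and none changed sign. The count of the 10 genes called at TL3h was 5 and became 3 with library size only and with only the 6 libraries compared, and 4 with DESeq2 size factors and without the filter. At TL3d it was 2 and became 1 without the filter and with only the 6 libraries. TL3d against TL3h gave 1, which became 0 with library size only and without the filter, and 3 with only the 6 libraries. With DESeq2 it was 0 of the 9 genes tested, since PGF, the gene called, had no adjusted p there. TL14d against TL3d gave 0, and 3 with DESeq2. Leaving out 1 library gave 3 to 6 at TL3h, 0 to 3 at TL3d, 0 throughout at TL14d, 0 to 2 for TL3d against TL3h, and 0 to 1 for TL14d against TL3d. Of 18 same-numbered pairs of libraries, 8 had deviations correlated over 0.1 (range -0.16 to 0.53). These values do not settle whether the replicate numbers pair the libraries, and the main fit treated them as unpaired. With a replicate block the 5 counts were 5, 2, 0, 1, and 0. Signs changed only in values that were not called. With limma-trend the log2 differences were 0.25 for FLT1 and 0.23 for PECAM1 at TL14d, 0.13 for TEK at TL3h, and 0.11 for ANGPT1 and -0.20 for KDR for TL14d against TL3d. With the block they were 0.00382 for FLT1 at TL14d and 0.0625 for ANGPT1 for TL14d against TL3d, and with library size only 0.33 for VEGFA for TL3d against TL3h. Leaving out 1 library, the TL14d difference from control ran from -0.39 to 0.53 for ANGPT1, -0.75 to 0.33 for ANGPT2, -0.95 to 1.33 for CDH5, -0.58 to 0.43 for FLT1, -1.48 to 0.36 for KDR, -1.29 to 1.24 for PECAM1, -2.30 to 0.0764 for PGF, and -0.22 to 1.22 for VWF. At TL3h it ran from -0.85 to 0.0317 for ANGPT1 and -0.84 to 0.0164 for TEK, and at TL3d from -0.63 to 0.60 for ANGPT1 and -0.11 to 0.91 for TEK. For TL3d against TL3h it ran from -0.24 to 0.97 for ANGPT1, -0.0780 to 0.47 for KDR, and -0.44 to 0.98 for VWF, and for TL14d against TL3d from -0.52 to 0.70 for ANGPT1, -0.84 to 0.999 for KDR, -0.41 to 0.59 for PGF, and -1.70 to 0.39 for VWF. Over all genes, the calls at TL3d were 2608, 4471 with DESeq2, and 359 to 3778 without 1 library. At TL14d they were 0, 367 with DESeq2, and 0 to 716 without 1 library, and for TL14d against TL3d 332, 1850 with DESeq2, 15 with only the 6 libraries, and 0 to 584 without 1 library. Library size only gave 1889 higher and 5674 lower calls at TL3h, against 3435 and 3298 with TMM. The cause of these differences was not tested. With 3 libraries per group, the log2 standard errors were 0.72 to 0.97 for 8 of the 10 genes and smaller for VEGFA and ANGPT2. In counts simulated for TL3h against control, 200 of 14835 genes were changed. The test recovered 7 of 50 genes changed 2-fold and 28 of 50 changed 4-fold. In the data 45.4% of all genes were called at TL3h, which eases the adjusted threshold, so these rates need not hold there. What depth adds to the spread of ANGPT1, the least abundant gene, was not tested.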
